A study of Mus musculus with 39 samples.

Results

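The 50 genes described here encode nucleolar ribosome biogenesis factors, the proteins that turn precursor ribosomal RNA into the small and large ribosomal subunits. They were taken from a list by symbol, by a rule that uses no measured values, although the list was drawn up with earlier results of these data known. All 50 were present among the 55487 genes of the count table. All 50 also passed the filter on low counts, which 14119 genes passed. The data are Smart-seq2 libraries, a full-length cDNA method for very small amounts of RNA, from wild-type mouse embryos at the 2-cell and the 4-cell stage. Some embryos were sequenced whole, here called intact, and others were taken apart so that each blastomere, one cell of the cleaving embryo, gave a library of its own, here called separated. The 39 libraries came from 19 embryos, namely 5 intact 2-cell, 5 separated 2-cell, 4 intact 4-cell and 5 separated 4-cell embryos.

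All groups carried the wild-type genotype, and strain, age of the embryos, litter and treatment were not stated in the labels. The labels put 3 of the separated 4-cell embryos (numbers 2, 3 and 4) in batch 1, with every other group, and the remaining 2 (numbers 6 and 7) in batch 2. The embryo was the replicate, so the counts of sister blastomeres were summed. Nothing in the labels ties the embryos to separate parents, so p-values measure the spread between these embryos, part of which may be technical. Separated embryos also differed from intact ones in the number of libraries and the RNA put into each, and these cannot be told apart from separation itself. A value in CPM is a count scaled to the size of the library, here with TMM factors that adjust for the composition of the RNA unless it is said to be per total counts. It is a relative level, so a change of the gene and a change in the rest of the RNA cannot be told apart, and neither can RNA per cell and the number of cells.

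Ribosome assembly begins in the nucleolus, where RNA polymerase I transcribes the ribosomal RNA precursor. Box C/D and box H/ACA ribonucleoproteins, guided by small nucleolar RNAs, modify the precursor, the small-subunit processome folds and cuts its first part, and a separate series of factors builds the large subunit. The mouse embryo inherits ribosomes and much messenger RNA from the oocyte, begins major transcription of its own genome at the 2-cell stage, and starts with compact nucleolus precursor bodies that mature into working nucleoli over the cleavage stages.

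Embryo totals ranged from 2738246 to 103179667 counts, the lowest in intact 4-cell embryos and the highest in batch 2. Transcripts known from the oocyte (8 genes, Omt2b the most abundant) summed to between 32486 and 61960 CPM in intact 2-cell embryos and to between 1035 and 2572 CPM in intact 4-cell embryos, and 7 markers of the 2-cell stage to between 776 and 1564 CPM and to between 0.365 and 63.2 CPM in the same groups. The part of this change in the composition of the RNA in the results below was not tested. Markers of cumulus and granulosa cells (12 genes) summed to at most 38.5 CPM in any embryo, with between 6 and 11 of them at 0 in a group, and those of blood to at most 50.6 CPM, of sperm to at most 25.6 CPM and of oviduct epithelium to at most 135 CPM. The median log2 fold change of all genes tested between intact 4-cell and intact 2-cell embryos was -0.00.

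A search of promoter windows looked for CACGTG, the canonical E-box letters that Myc and Max are known to bind, on both strands (the letters read the same on each). A window runs from 250 bases before the start to 50 bases after it, in the RefSeq promoter table of build GRCm38.p6, and 43 of the 50 members had at least 1. In the 250 bases before the start, 3 of the 43 members held the letters, 6.98% (exact 95% binomial interval 1.46 to 19.1%), against 9.72% of the 9726 genes tested that have a window and 6.86% of all 27025 genes in the table. In the whole window, 10 of 43 members held them, 23.3% (11.8 to 38.6%), against 11.5% of the genes tested and 8.09% of all genes. In the 50 bases after the start, a stretch looked at only after the other values were seen, 7 of 43 members held them, 16.3%, against 1.93% of the genes tested. A match is a description of letters and says nothing about binding. Of the 14 members called higher below, only Wdr43 and Utp20 held the letters, and Npm1, Gnl2 and Wdr36 had no window. The matches of Wdr43 and Utp20 are shown. Tsr1 and Nop2, not called with edgeR, give 1 match on each side of the start for comparison. The motif is in capitals and the gene's strand is read 5′ to 3′. The first pair lies after the start, at chr17:71616220-71616249 on the plus strand (motif 18 bases after the start) and chr10:88826765-88826789 on the minus strand (38 bases after). The other pair lies at chr11:74898092-74898121 on the plus strand (25 bases after the start) and chr6:125131811-125131840 on the plus strand (60 bases before).
Wdr43: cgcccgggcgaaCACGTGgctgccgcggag
Utp20: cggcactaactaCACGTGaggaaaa
Tsr1: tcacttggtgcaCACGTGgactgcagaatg
Nop2: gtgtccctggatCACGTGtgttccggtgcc

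The summed level of the 50 members was higher in intact 4-cell than in intact 2-cell embryos. It was 9022 ± 1853 CPM (SD, n = 5) in intact 2-cell embryos and 16858 ± 1191 CPM (SD, n = 4) in intact 4-cell embryos, and the ranges did not overlap (6820 to 11474 against 15076 to 17548 CPM). In separated embryos it was 11158 ± 2799 CPM (SD, n = 5) at the 2-cell stage, 17354 ± 1244 CPM (SD, n = 3) at the 4-cell stage in batch 1 and 16169 ± 1378 CPM (SD, n = 2) in batch 2. The highest separated 2-cell embryo, number 4 at 15681 CPM, lay above the lowest separated 4-cell embryo, number 6 of batch 2 at 15195 CPM. As a share of total counts, without TMM factors, the order of the batches turned and the overlap was gone. The mean was 8994 CPM per total counts in intact 2-cell, 17199 in intact 4-cell, 10289 in separated 2-cell embryos, 16642 in batch 1 and 20417 in batch 2. On that scale the highest separated 2-cell embryo, number 4, stood at 14153 and the lowest separated 4-cell embryo, number 2, at 14703. These sums are a description and were not tested. Npm1 and Brix1 took much of the sum, and the members without these genes summed to 5484 ± 1064 CPM (SD, n = 5) in intact 2-cell and 10012 ± 1115 CPM (SD, n = 4) in intact 4-cell embryos.

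**Figure D1:**
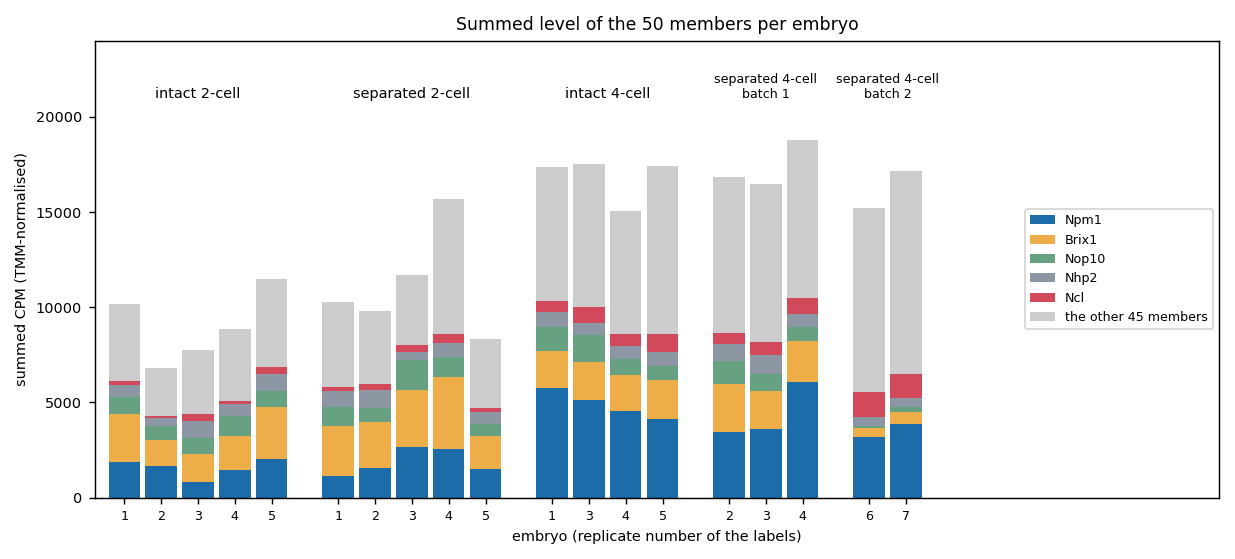
Summed CPM of the 50 members in each of the 19 embryos (bars; x axis, the labels' embryo number within each group), with 5 abundant members in colour and the other 45 in grey. Intact 4-cell embryos all lie at or above 15076 CPM and intact 2-cell embryos all at or below 11474 CPM, while Brix1 and Nop10 are thin in the 2 embryos of batch 2.

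Per length (CPM divided by the length in kb of all annotated exons of the gene, GENCODE M21), the order of levels changed between the stages at its top. Nop10 led in intact 2-cell embryos with a level of 789.9 CPM per kb, followed by Brix1 with 722, Nhp2 with 602, Npm1 with 588 and Imp3 with 232 CPM per kb. In intact 4-cell embryos Npm1 led with 1834 CPM per kb, ahead of Nop10 with 971, Brix1 with 718, Nhp2 with 620.0 and Imp3 with 287 CPM per kb. Over the intact 2-cell embryos the levels per kb ranged from 661 to 962 for Nop10, from 496 to 997 for Brix1, from 352 to 789.6 for Nhp2 and from 311 to 756 for Npm1, so these 4 overlapped. At the 4-cell stage the lowest Npm1 value, 1553 CPM per kb, lay above the highest Nop10 value, 1279 CPM per kb, while Nop10 (from 690.1) and Brix1 (692 to 737) overlapped. Nle1, which encodes a factor acting on the early 60S particle, was lowest in both, with 0.511 and 1.02 CPM per kb. Long annotated exon sets, such as that of Ncl, lower this measure.

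In intact embryos 11 of the 50 members were higher at the 4-cell than at the 2-cell stage and 0 were lower (edgeR quasi-likelihood test, Benjamini-Hochberg adjusted p under 0.05), against 5.41% of all genes tested called higher and 4.99% called lower. In separated embryos, with batch 1 as the 4-cell level, 12 were higher and 0 lower, against 6.4% and 4.7% of all genes. The unadjusted p was under 0.05 for 19 of 50 members in each comparison, against 28% and 27.9% of all genes. The log2 fold change was above 0 for 45 of 50 members in intact embryos (49.6% of all genes) and for 39 of 50 in separated embryos (46.8% of all genes). Its median over the members was 1.13 in intact embryos, beside -0.00 for all genes, and 0.98 in separated embryos, beside -0.15 for all genes.

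The 2 stage comparisons share no embryos, but they come from the same fit and share its estimate of the spread. The calls in them are therefore not independent. Members higher in both numbered 9, namely Npm1, Ncl, Nolc1, Ddx21, Nop58, Wdr75, Wdr43, Wdr36 and Gnl3, where 2.94% of all genes were higher in both. Utp20 and Gnl2 were called only in intact embryos, and Wdr12, Bms1 and Rrp1 only in separated embryos. The difference between the stage effects was itself tested, and no member passed with edgeR (0 of 50, as 0% of all genes passed). Of these 5, Rrp1 passed it with DESeq2 (adjusted p = 0.00456) and without separated 2-cell embryo 4 (0.0132), and the other 4 passed it under none of the alternatives run. Every intact 4-cell embryo lay above every intact 2-cell embryo for 19 of 50 members (9.87% of all genes), and every separated 4-cell embryo of batch 1 above every separated 2-cell embryo for 22 (11.7%). With both batches the latter count was 20 (7.17%). For 0 members did all 4-cell embryos lie below all 2-cell embryos, against 7.1%, 8.74% and 6.93% of all genes in these 3 comparisons.

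**Figure D2:**
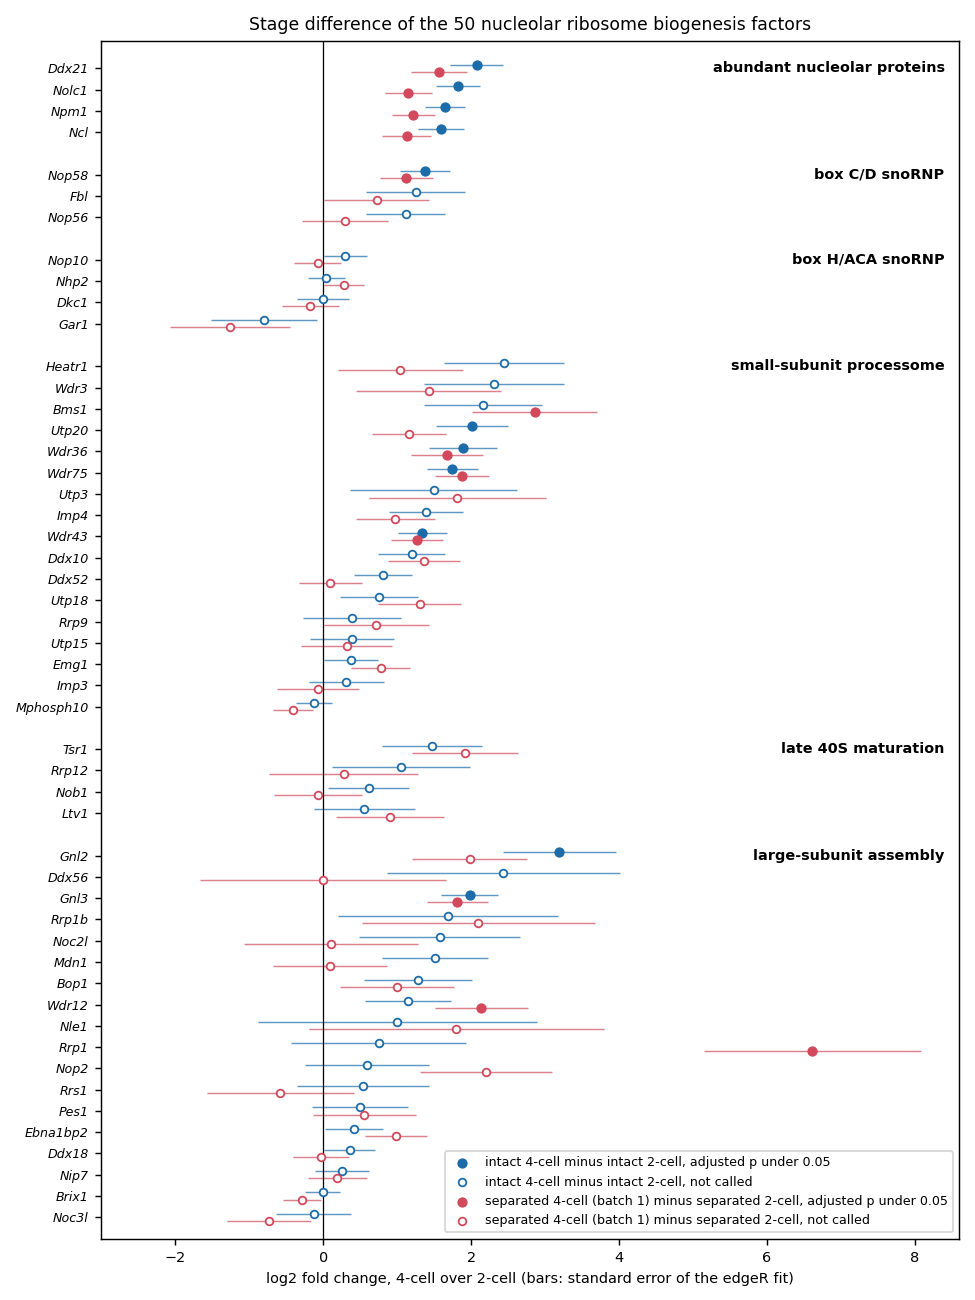
Log2 fold change of each member, 4-cell over 2-cell (points; bars, standard error of the edgeR fit), in intact embryos (blue) and in separated embryos of batch 1 (red), grouped by role. Filled points passed an adjusted p of 0.05. The 4 members of the class named abundant nucleolar proteins are filled in both comparisons and the 4 box H/ACA members in neither.

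All 4 genes of the class named abundant nucleolar proteins were called higher at the 4-cell stage. The class as a whole was not tested, and its name does not rank the RNA levels here. Mean levels in intact 2-cell embryos were 588 CPM per kb for Npm1, 37.4 for Nolc1, 23.9 for Ncl and 13.4 for Ddx21. Nop10 (789.9 CPM per kb), Brix1 (722) and Nhp2 (602), of other classes, had higher means there and did not pass in intact embryos. Nucleophosmin (Npm1), nucleolin (Ncl), the small nucleolar RNA chaperone Nolc1 and the RNA helicase Ddx21 all passed the test in both comparisons (4 of 4), with a median log2 fold change of 1.73 in intact and 1.18 in separated embryos. With limma voom Npm1 (adjusted p = 0.586 in intact and 0.306 in separated embryos) and Nolc1 (0.0837 and 0.182) did not pass. With no filter on low counts Ddx21, Nolc1 and Ncl did not pass in separated embryos (0.0625, 0.0982 and 0.054). Npm1 (chr11:33152287-33163206, minus strand, GRCm38), a chaperone of the granular outer part of the nucleolus, stood at 1850, 1671, 828, 1467 and 2013 CPM in the intact 2-cell embryos and at 5744, 5141, 4523 and 4138 CPM in the intact 4-cell embryos. In separated embryos it stood at 1156, 1537, 2664, 2544 and 1486 CPM at the 2-cell stage, at 3451, 3598 and 6053 CPM at the 4-cell stage in batch 1 and at 3181 and 3841 CPM in batch 2. All 4-cell embryos lay above all 2-cell embryos, with the separated 4-cell embryo number 4 far above its group. The log2 fold change was 1.64 ± 0.27 (SE, adjusted p = 0.000759, edgeR) in intact and 1.22 ± 0.29 (SE, adjusted p = 0.0118) in separated embryos. Without the separated 4-cell embryo number 4 it was 0.87 and no longer passed (adjusted p = 0.107).

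Ddx21 (chr10:62580251-62602281, minus strand), which unwinds RNA and is known to act on ribosomal RNA transcription and processing, read 109, 52.5, 36.0, 84.6 and 65.3 CPM in intact 2-cell embryos and 368, 347, 202 and 254 CPM in intact 4-cell embryos. Separated embryos held 42.0, 111, 126, 93.3 and 80.2 CPM at the 2-cell stage, then 242, 255 and 304 CPM in batch 1 and 309.8 and 316 CPM in batch 2. The stages did not overlap, and the batches lay close together. Its log2 fold change was 2.08 ± 0.36 (SE, adjusted p = 0.0011) in intact and 1.56 ± 0.38 (SE, adjusted p = 0.0130) in separated embryos by edgeR. In separated embryos Ddx21 did not pass without 4-cell embryo 4 (adjusted p = 0.0568) or with the replicate number as a block (0.0617).

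Nolc1 (chr19:46075863-46085530, plus strand) rose from 135, 147, 78.9, 172 and 209.7 CPM to 403, 654, 356 and 681 CPM in intact embryos, with log2 fold change 1.82 ± 0.30 (SE, adjusted p = 0.000791, edgeR). In separated embryos it went from 187, 105, 159, 235 and 179 CPM to 400.4, 357 and 391 CPM in batch 1, with 1021 and 857 CPM in batch 2, and the log2 fold change of batch 1 was 1.15 ± 0.32 (SE, adjusted p = 0.0264). The 2-cell and 4-cell values did not overlap, and both embryos of batch 2 were the highest of the series. Ncl (chr1:86344719-86359400, minus strand), which binds the ribosomal RNA precursor, showed the same order. It read 203, 137, 365, 156 and 356 CPM in intact 2-cell embryos and 559, 847, 617 and 915 CPM in intact 4-cell embryos, with log2 fold change 1.59 ± 0.31 (SE, adjusted p = 0.0031, edgeR). In separated embryos Ncl read 231, 321, 362, 492 and 229.7 CPM, then 592, 691 and 859 CPM in batch 1 and 1322 and 1255 CPM in batch 2, with log2 fold change 1.13 ± 0.33 (SE, adjusted p = 0.0357). Every 4-cell embryo was above every 2-cell embryo of its kind. In separated embryos Nolc1 did not pass without 2-cell embryo 2 or without 4-cell embryo 2, 3 or 4 (adjusted p of 0.059 to 0.0782). Ncl passed there without 2-cell embryo 3 or 4, but not without any one of the other 8 embryos (0.0504 to 0.158). With the replicate number as a block neither Nolc1 (0.0593) nor Ncl (0.0800) passed in separated embryos.

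Among the box C/D proteins, the methylation guides' core, 1 of 3 passed in each comparison, and the median log2 fold change was 1.25 in intact and 0.72 in separated embryos. Nop58 (chr1:59684971-59719044, plus strand), one of the paired scaffold proteins, read 169.7, 95.1, 132, 136 and 254 CPM in intact 2-cell embryos and 341, 459.8, 285 and 543 CPM in intact 4-cell embryos. It read 221, 138, 230.0, 320.2 and 111 CPM in separated 2-cell embryos, then 346, 411 and 574 CPM in batch 1 and 609.9 and 694 CPM in batch 2. The stages did not overlap, though the gap in intact embryos was narrow. The log2 fold change was 1.37 ± 0.34 (SE, adjusted p = 0.0134, edgeR) in intact and 1.12 ± 0.36 (SE, adjusted p = 0.0489) in separated embryos. The intact call was lost without 4-cell embryo 3 (adjusted p = 0.0713) or 5 (0.094). The separated call was lost without any one of the separated embryos except 2-cell embryo 4 (adjusted p of 0.0587 to 0.227). It was also lost with no filter (0.131), only the groups compared (0.0704), batch 2 left out (0.0522) and the replicate number as a block (0.0784). The partner scaffold Nop56 did not pass in intact embryos (log2 fold change 1.12 ± 0.53 SE, adjusted p = 0.177) or in separated embryos (0.29 ± 0.58 SE, adjusted p = 0.808). The methyltransferase fibrillarin (Fbl) was low throughout batch 1, at 2.72 to 19.7 CPM in intact 2-cell and 19.7 to 34.2 CPM in intact 4-cell embryos, and did not pass (log2 fold change 1.25 ± 0.66 SE, adjusted p = 0.226, and 0.72 ± 0.71 SE, adjusted p = 0.566), though without a batch term it passed narrowly in separated embryos (adjusted p = 0.04999). In batch 2 Fbl read 135 and 187 CPM and Nop56 376 and 479.7 CPM, each above every other embryo. Batch 2 lay wholly above the separated 4-cell embryos of batch 1 for 24 of 50 members (27.9% of all genes). Nop56 values were not whole numbers in 36 of 39 libraries, which means that the authors' counting shared its reads with other genes.

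The box H/ACA proteins, the core of the pseudouridine guides, were the one class whose median lay near 0, at 0.02 in intact and -0.13 in separated embryos, and 0 of 4 passed in either comparison. The pseudouridine synthase dyskerin (Dkc1) read 120.4, 135, 99.0, 149 and 208 CPM in intact 2-cell embryos and 138, 142, 155 and 134 CPM in intact 4-cell embryos. The 4-cell values lay inside the 2-cell range, and the log2 fold change was -0.00 ± 0.35 (SE) in intact and -0.17 ± 0.38 (SE) in separated embryos. Nhp2 read 635, 404, 899, 608 and 905 CPM and then 784, 630.2, 685 and 743 CPM in intact embryos (log2 fold change 0.04 ± 0.25 SE, adjusted p = 0.941), a value whose sign turned under DESeq2 size factors. The stages of Nop10 overlapped too (0.30 ± 0.29 SE, adjusted p = 0.554). Gar1 did not pass either, at between 5.82 and 56.5 CPM and then between 7.44 and 32.2 CPM in intact embryos (-0.80 ± 0.72 SE, adjusted p = 0.515) and with -1.26 ± 0.81 (SE, adjusted p = 0.328) in separated embryos. The difference between this class and the others was not tested.

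The small-subunit processome, the large particle that folds and cleaves the 5′ part of the precursor, had 4 of 17 members higher in each comparison, with a median log2 fold change of 1.34 in intact and 1.16 in separated embryos. Wdr75, Wdr43 and Wdr36 passed in both, Utp20 in intact and Bms1 in separated embryos only. Wdr75 (chr1:45795166-45823619, plus strand), a beta-propeller subunit of the t-UTP group that is known to link transcription and processing, passed under every alternative run in both comparisons. It read 47.9, 151, 90.7, 76.7 and 113 CPM in intact 2-cell embryos and 317, 362, 286 and 320.0 CPM in intact 4-cell embryos, with log2 fold change 1.75 ± 0.35 (SE, adjusted p = 0.00336, edgeR). Separated embryos held 52.0, 99.3, 145, 176 and 101 CPM and then 431, 426 and 408 CPM in batch 1, with log2 fold change 1.88 ± 0.37 (SE, adjusted p = 0.00341). The batch 2 embryos, at 178 and 249 CPM, were lower than batch 1 and only just above the highest 2-cell embryo.

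Wdr43 (chr17:71615895-71659031, plus strand), another t-UTP subunit, carries the E-box letters shown above. It read 407, 278, 144, 386 and 349.8 CPM in intact 2-cell embryos and 893, 731, 647 and 896 CPM in intact 4-cell embryos (log2 fold change 1.34 ± 0.33 SE, adjusted p = 0.0138, edgeR). In separated embryos Wdr43 read 455, 322, 192, 686 and 265 CPM, then 957, 897 and 918 CPM in batch 1 (1.27 ± 0.35 SE, adjusted p = 0.0265). With batch 2, at 534 and 691 CPM, the separated stages overlapped, since 2-cell embryo 4 stood at 686 CPM. Wdr36, a processome subunit of the same fold, rose from between 15.3 and 53.8 CPM to between 78.7 and 169 CPM in intact embryos (1.89 ± 0.46 SE, adjusted p = 0.0135) and from between 20.4 and 99.7 CPM to 171, 117 and 169 CPM in batch 1 (1.67 ± 0.49 SE, adjusted p = 0.0335), with 254 and 299.7 CPM in batch 2. Without intact 4-cell embryo 5 Wdr36 and Wdr43 did not pass in intact embryos (adjusted p = 0.0805 and 0.069), nor did Wdr43 without embryo 1 (0.0635). In separated embryos Wdr43 did not pass without 2-cell embryo 2 or 5 or without 4-cell embryo 2, 3 or 4 (0.0522 to 0.0656). Wdr36 passed there without 2-cell embryo 2 or 5, but not without any one of the other 8 embryos (0.0511 to 0.0981). Nor did Wdr36 pass with no filter (0.109), only the groups compared (0.0574) or the replicate number as a block (0.0961).

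Utp20 (chr10:88746607-88826804, minus strand), a very large repeat protein and the other called member with printed E-box letters, read 35.6, 7.40, 15.5, 24.0 and 16.3 CPM in intact 2-cell embryos and 57.0, 105, 80.2 and 76.4 CPM in intact 4-cell embryos. The values did not overlap, and the log2 fold change was 2.01 ± 0.48 (SE, adjusted p = 0.0114, edgeR). It did not pass without 4-cell embryo 3 (0.0672), with no filter on low counts (0.124) or with the replicate number as a block (0.0501). In separated embryos it was 1.16 ± 0.51 (SE, adjusted p = 0.140). Bms1 (chr6:118383381-118419474, minus strand), the GTPase of the processome, read 1.93, 12.9, 0.728, 9.68 and 29.8 CPM in separated 2-cell embryos, 81.6, 66.7 and 90.6 CPM in batch 1 and 55.0 and 53.5 CPM in batch 2. All separated 4-cell embryos were above all separated 2-cell embryos, with log2 fold change 2.86 ± 0.84 (SE, adjusted p = 0.0353). It passed without 2-cell embryo 3 or 5, but not without any one of the other 8 separated embryos (adjusted p of 0.0555 to 0.0946). Nor did it pass with no filter (0.0512), with only the groups compared in the fit (0.0972) or with the replicate number as a block (0.110). In intact embryos Bms1 went from between 4.29 and 27.5 CPM to between 49.9 and 70.2 CPM, also without overlap, but did not pass (2.16 ± 0.79 SE, adjusted p = 0.084).

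Of the other 12 processome members, Heatr1 came nearest in intact embryos (2.45 ± 0.81 SE, adjusted p = 0.0591). Its 2-cell embryos ranged from 0.199 to 79.3 CPM and its 4-cell embryos from 126 to 199 CPM. Imp4 and Wdr3 had log2 fold changes of 1.38 and 2.31 in intact embryos, with adjusted p of 0.0809 and 0.115, and Ddx10 had an adjusted p of 0.0914. The lowest in both comparisons was Mphosph10, an Imp3 and Imp4 partner, at -0.13 ± 0.24 (SE) in intact and -0.41 ± 0.27 (SE) in separated embryos. It varied little, between 153 and 181 CPM in intact 2-cell and between 132 and 169 CPM in intact 4-cell embryos.

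**Figure D3:**
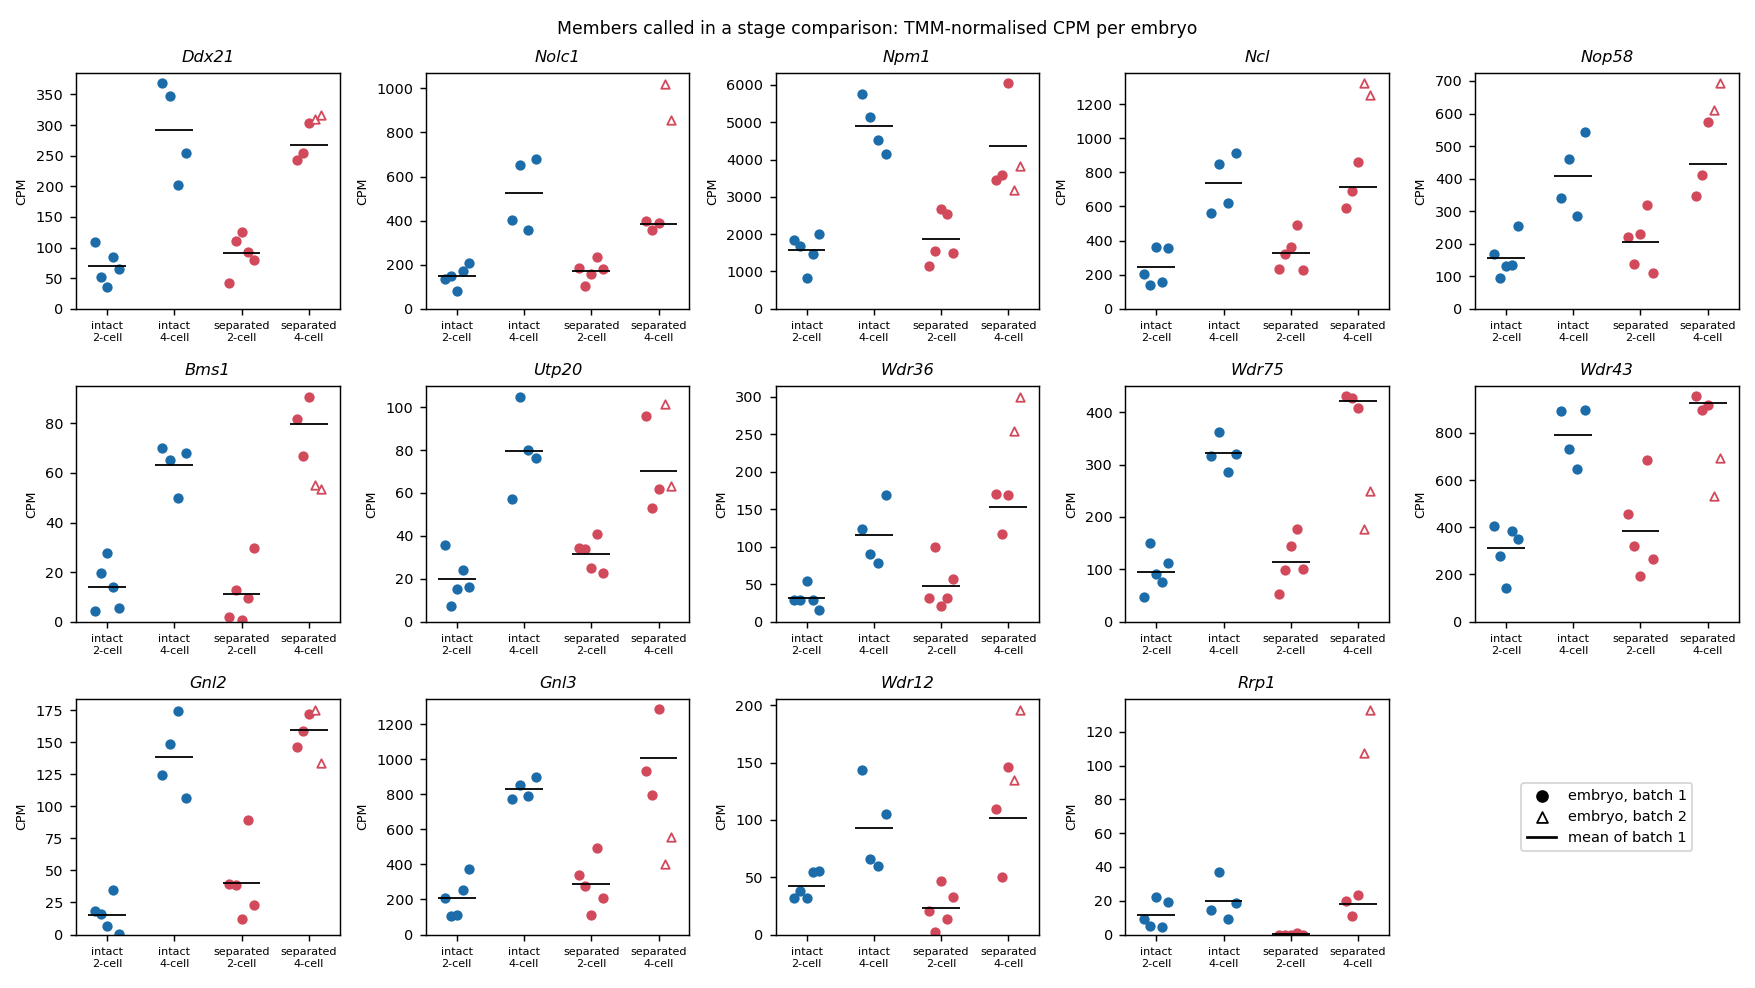
CPM per embryo (y axis, from 0) of the 14 members called in at least 1 stage comparison, in intact (blue) and separated (red) embryos; circles are batch 1, open triangles batch 2 and lines the batch 1 mean. All intact 4-cell embryos lie above all intact 2-cell embryos except for Rrp1, and Wdr75 and Gnl3 show batch 2 below batch 1 while Nolc1 and Ncl show it above.

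The factors of late 40S maturation, which act on the nearly finished small subunit, gave 0 of 4 calls in each comparison with edgeR, with medians of 0.83 and 0.59. Tsr1 passed as higher in separated embryos with DESeq2 (adjusted p = 0.0286), with limma voom (0.0445) and without a batch term (0.0305). Tsr1, a GTPase-like factor, went from between 12.5 and 73.1 CPM to between 57.2 and 153 CPM in intact embryos (1.47 ± 0.68 SE, adjusted p = 0.163, edgeR) and from between 1.84 and 49.0 CPM to between 70.2 and 125 CPM in batch 1 (1.91 ± 0.72 SE, adjusted p = 0.0893). The stages of Tsr1 overlapped in intact embryos and not in separated ones. Rrp12 read at most 24.9 CPM in any embryo of batch 1, against 127 and 103 CPM in batch 2, with log2 fold change 1.05 ± 0.93 (SE, adjusted p = 0.509) in intact and 0.28 ± 1.01 (SE, adjusted p = 0.907) in separated embryos. Nob1, the endonuclease that makes the 3′ end of 18S RNA, had 0.61 ± 0.54 (SE, adjusted p = 0.508) in intact embryos. This value rested on intact 4-cell embryo 5, at 242 CPM against 80.8 to 90.7 CPM in the other 3, and was -0.075 without it. Ltv1, an export factor, had 0.55 in intact and 0.90 ± 0.73 (SE) in separated embryos and did not pass.

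The large-subunit factors, the class with the most members, spanned the widest range of log2 fold changes. These ran from -0.13 to 3.19 in intact and from -0.73 to 6.61 in separated embryos, the last value being that of Rrp1. In this class 2 of 18 members were higher in intact and 3 of 18 in separated embryos, with medians of 0.87 and 0.77. The nucleolar GTPase nucleostemin (Gnl3, chr14:31012433-31019152, minus strand), known from stem and cycling cells, read 208, 104, 111, 252 and 374 CPM in intact 2-cell embryos and 773, 852, 790.0 and 900.0 CPM in intact 4-cell embryos. In separated embryos it read 341, 274, 114, 491 and 209 CPM, then 935, 797 and 1284 CPM in batch 1 and 404 and 557 CPM in batch 2. Intact stages were well apart, whereas batch 2 embryo 6, at 404 CPM, lay within the range of separated 2-cell embryos. The log2 fold change was 1.98 ± 0.39 (SE, adjusted p = 0.00279, edgeR) in intact and 1.81 ± 0.41 (SE, adjusted p = 0.00856) in separated embryos of batch 1. The related GTPase Gnl2 (chr4:125016585-125055380, plus strand) read 18.1, 16.1, 6.48, 34.8 and 0.259 CPM in intact 2-cell embryos and 124, 149, 174 and 107 CPM in intact 4-cell embryos. It had the largest log2 fold change of the 50 in intact embryos, 3.19 ± 0.76 (SE, adjusted p = 0.0113). In separated embryos the stages did not overlap either, at up to 89.3 CPM against 146 to 172 CPM in batch 1 and 175 and 134 CPM in batch 2, but Gnl2 did not pass (1.98 ± 0.77 SE, adjusted p = 0.102).

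Wdr12 belongs with Bop1 and Pes1 to the PeBoW complex of 28S and 5.8S processing. Wdr12 (chr1:60069785-60098645, minus strand) read 20.6, 2.47, 46.4, 13.7 and 32.5 CPM in separated 2-cell embryos, 109, 50.1 and 146 CPM in batch 1 and 135 and 196 CPM in batch 2, with log2 fold change 2.14 ± 0.62 (SE, adjusted p = 0.0329). It did not pass without 2-cell embryo 1 or 4 or without 4-cell embryo 2, 4, 6 or 7 (adjusted p of 0.0569 to 0.157). Nor did it pass with no filter (0.0576), DESeq2 size factors (0.0516), only the groups compared (0.115) or the replicate number as a block (0.0778). Bop1 and Pes1 did not pass in either comparison, with 1.28 and 0.50 in intact embryos. Mdn1, the giant AAA ATPase that strips factors from the 60S particle, had 1.51 ± 0.72 (SE, adjusted p = 0.174) in intact and 0.09 ± 0.77 (SE) in separated embryos. Brix1, abundant at both stages, did not pass in intact embryos, at 2562, 1356, 1453, 1770.1 and 2722 CPM and then 1972, 1964, 1890.3 and 2014 CPM (-0.01 ± 0.23 SE, adjusted p = 0.989). Its 4-cell values lay inside the 2-cell range.

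Rrp1 (chr10:78400384-78413043, minus strand), a large-subunit processing factor, had the largest log2 fold change of the 50 in separated embryos and counts of 0 in most separated 2-cell embryos. Separated 2-cell embryos held 0, 0, 0, 43 and 0 counts over 10 libraries, while those of batch 1 at the 4-cell stage held 276, 171 and 303 counts and those of batch 2 held 14273 and 14300. Intact embryos held 65, 29, 224, 37 and 147 counts at the 2-cell stage and 56, 100, 38 and 77 at the 4-cell stage, that is 4.20 to 22.3 against 9.29 to 37.2 CPM, with no call (0.75 ± 1.18 SE, adjusted p = 0.738). The low group was thus the separated 2-cell embryos, although these had some of the deepest libraries. The fitted log2 fold change of 6.61 ± 1.47 (SE, adjusted p = 0.00791, edgeR) in separated embryos depends on how values near 0 are treated.

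Separation itself gave no call among the members. Separated against intact 2-cell embryos gave 0 of 50 higher (0.0142% of all genes) and 0 lower (0%), with 4 of 50 members at an unadjusted p under 0.05 (10.5% of all genes). The log2 difference was above 0 for 39 of 50 members there (57.6% of all genes), with a median of 0.38 beside 0.16 for all genes. Separated against intact 4-cell embryos gave 0 of 50 in each direction (0% of all genes), with 0 at an unadjusted p under 0.05 (5.98% of all genes) and 29 of 50 differences above 0 (52% of all genes). At the 2-cell stage Rrp1 had the smallest p, with a log2 difference of -6.01 ± 1.39 (SE, adjusted p = 0.213, edgeR). Rrp1 passed as lower with no filter on low counts (adjusted p = 0.00231), with DESeq2 (4.64e-08), with limma voom (0.00934), with embryos thinned to equal totals (0.0117) and without separated 2-cell embryo 4 (0.00211). Mphosph10 followed, at 153 to 181 CPM in intact and 201 to 359 CPM in separated 2-cell embryos with no overlap (0.75 ± 0.23 SE, adjusted p = 0.244), and then Imp4 (1.02 ± 0.48 SE, adjusted p = 0.451). At the 4-cell stage the smallest p belonged to Emg1, a ribosomal RNA methyltransferase (0.78 ± 0.42 SE, adjusted p = 0.801), Utp15 (-1.13 ± 0.67 SE, adjusted p = 0.828) and Mphosph10 (0.46 ± 0.28 SE, adjusted p = 0.842).

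In the test of whether the stage effect differed between separated and intact embryos, 1 of 50 members had an unadjusted p under 0.05 (8.7% of all genes). This was Rrp1 (5.87 ± 1.84 SE, adjusted p = 0.409), followed by Nolc1 (-0.67 ± 0.44 SE, adjusted p = 0.764) and Mdn1 (-1.42 ± 1.07 SE, adjusted p = 0.836). Rrp1 passed that test with DESeq2 (adjusted p = 0.00456) and without separated 2-cell embryo 4 (0.0132).

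The labelled batches of separated 4-cell embryos differed for 2 members, both lower in batch 2 (1.76% of all genes were lower), and 0 were higher (0.269%), with edgeR over all embryos. These counts depend on the fit, with 16 higher and 7 lower by limma voom and 11 higher and 5 lower with only the groups compared. The shares of all genes under these 2 fits are not given here, so the latter counts are no result about the members. The unadjusted p was under 0.05 for 9 of 50 members (13% of all genes). The log2 difference was above 0 for 33 of 50 members (52.8% of all genes). Every batch 2 embryo lay above every batch 1 separated 4-cell embryo for 24 of 50 members (27.9% of all genes). Every batch 2 embryo lay below them for 9 of 50 (18%), near the 16.4% of all genes. Brix1 (chr15:10474779-10485947, minus strand) read 2506, 1976 and 2189 CPM in batch 1 and 463 and 648 CPM in batch 2, a log2 difference of -2.00 ± 0.34 (SE, adjusted p = 0.00197, edgeR). Nop10 (chr2:112261926-112263269, plus strand), the small box H/ACA subunit, read 1225, 898 and 696 CPM in batch 1 and 110.3 and 259.7 CPM in batch 2, a log2 difference of -2.34 ± 0.43 (SE, adjusted p = 0.00418). Both were lower in batch 2 than in every other embryo of the series, and the 8 single blastomeres of batch 2 all lay below the 12 of batch 1. Without embryo 6 of batch 2 neither passed (adjusted p = 0.0634 and 0.161). Batch 2 libraries also held less mitochondrial RNA (4.21 to 7.99% of counts, against 15.7 to 27.1% in batch 1 4-cell blastomeres) and more detected genes (11182 to 16518, against 7939 to 9936). The part of these in the differences was not tested. Stage values of separated embryos therefore refer to batch 1, and batch 2 had no 2-cell embryos to set it against.

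**Figure D4:**
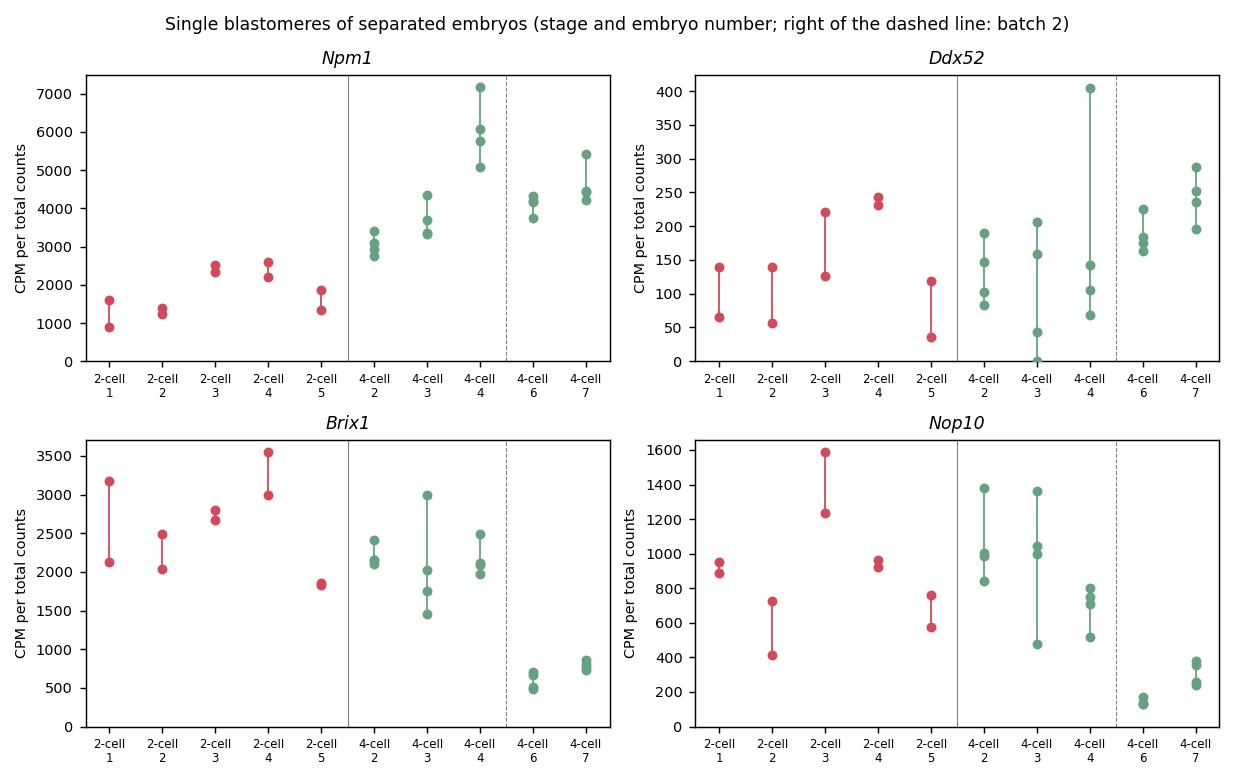
CPM per total counts of Npm1, Ddx52, Brix1 and Nop10 in each of the 30 single blastomeres (points), with sisters of an embryo joined by a line; 2-cell embryos in red, 4-cell embryos in green, batch 2 right of the dashed line. Many sisters lie close together for Npm1, though those of 2-cell embryo 1 read 895 and 1600 CPM. One blastomere of 4-cell embryo 3 holds almost no Ddx52 counts, and Brix1 and Nop10 are low in all 8 blastomeres of batch 2.

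Sister blastomeres were compared by the SD of log2 CPM within embryos, over members with a mean of at least 10 CPM. This spread includes sampling and amplification noise and was not tested. Its median over members was 0.92 at the 2-cell stage (46 members), 1.08 at the 4-cell stage in batch 1 (49 members) and 0.29 in batch 2 (50 members), beside 2.08, 2.01 and 0.55 for all genes with that level. Most of that gap went with level, since the members' median distance from the trend of all genes on mean level was -0.05, -0.07 and -0.04. Members below that trend numbered 29 of 46, 28 of 49 and 32 of 50, beside 53.0%, 51.6% and 51.0% of all genes.

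Npm1 was among the 3 most even members of at least 50 CPM in every stratum. Its SD was 0.24 at the 2-cell stage, 0.17 in batch 1 and 0.16 in batch 2. Its distance from the trend of all genes on mean level was small, at -0.002, 0.016 and -0.062. In 4-cell embryo 3, for example, its sisters ranged from 3322 to 4360.0 CPM. Ebna1bp2, a large-subunit assembly factor, was the most even at the 2-cell stage (0.13), where the highest ratio between sisters was 1.16. Nhp2 was even at the 4-cell stage, with 0.22 in batch 1 and 0.15 in batch 2. So were Brix1 at the 2-cell stage (0.20), Wdr43 in batch 1 (0.29) and Ncl in batch 2 (0.12). Against the trend, Ebna1bp2 lay at -0.48, Nhp2 at -0.16 and -0.13, Ncl at -0.12, Wdr43 at -0.08 and Brix1 at -0.002.

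The widest members of at least 50 CPM were Ltv1 (2.08), Imp4 (1.97) and the helicase Ddx10 (1.27) at the 2-cell stage. In batch 1 they were Wdr3 (2.53), Ddx52 (2.10) and Tsr1 (2.07), and in batch 2 Rrp1b (0.68), Bms1 (0.62) and Pes1 (0.62). This order is by SD alone. Against the trend of all genes on mean level, Ltv1 (0.47) and Imp4 (0.76) lay above it and Ddx10 (-0.54) below it. Those named in batch 1 lay 0.79 to 1.14 above the trend and those in batch 2 0.15 to 0.26 above it. The value of Ddx52, a helicase of the processome, rested largely on embryo 3, whose sisters read 207, 158, 0.567 and 43.9 CPM. Wdr3 read 61.9, 105, 0.851 and 0 CPM in the same 4 blastomeres, so the 2 genes were low in the same blastomere, number 3, and differed in number 4.

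**Figure D5:**
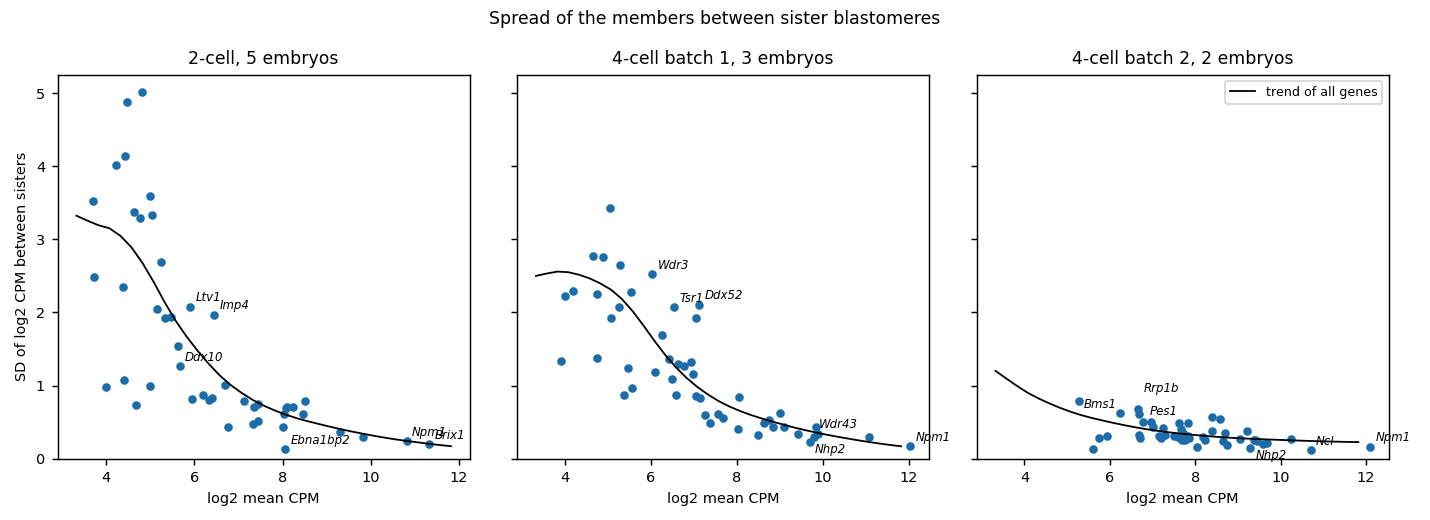
SD of log2 CPM between sister blastomeres (y axis) against log2 mean CPM (x axis) for each member (points) in the 3 strata, with the trend of all genes (line) and the 3 widest and 3 most even members of at least 50 CPM named. Members scatter around the trend, and the trend of batch 2 starts lower than those of batch 1 at the low end of the x axis.

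The other genes of the pathway, in 5 lists of 113 tested genes, gave 10 higher and 2 lower in intact embryos (median log2 fold change 0.78) and 8 higher and 4 lower in separated embryos (0.68). Beside the 5.41% higher and 4.99% lower of all genes in intact embryos and the 6.4% and 4.7% in separated embryos, these counts in separated embryos are near the background. RNA polymerase I and its factors (17 genes) gave 0 calls in intact embryos (median 0.56) and 1 lower in separated embryos (median 0.68), Taf1d, a promoter selectivity subunit, at -1.14 ± 0.34 (SE, adjusted p = 0.0352, edgeR). The smallest p in intact embryos belonged to the terminator factor Ttf1 (2.20 ± 0.74 SE, adjusted p = 0.0613) and to Ubtf, the upstream binding factor (1.49 ± 0.62 SE, adjusted p = 0.117). The exosome and its cofactors (15 genes) gave 3 higher and 1 lower in intact and 0 higher and 1 lower in separated embryos. The lower one in both was Mphosph6, from a mean of 6171 to 342 CPM in intact embryos (-4.18 ± 0.60 SE, adjusted p = 0.00022), and Exosc2 was among those higher (4.72 ± 0.97 SE, adjusted p = 0.00433).

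Further small-subunit factors (34 genes) gave 2 higher and 1 lower in intact and 2 higher and 2 lower in separated embryos. Utp11, a processome subunit, was lower in both (-1.54 ± 0.28 SE, adjusted p = 0.00181, and -1.16 ± 0.31 SE, adjusted p = 0.0224). The acetyltransferase Nat10 went from a mean of 0.247 to 46.0 CPM in intact embryos (adjusted p = 0.0029). Further large-subunit factors (38 genes) gave 4 higher and 0 lower in each comparison, among them Mybbp1a (2.31 ± 0.59 SE, adjusted p = 0.0177, in intact embryos) and Sdad1 (3.51 ± 0.69 SE, adjusted p = 0.00333, in separated embryos). Assembly factors of small nucleolar ribonucleoproteins (9 genes) gave 1 higher in intact and 2 higher in separated embryos, with Rpap3 at 1.09 ± 0.28 (SE, adjusted p = 0.0193) and 1.10 ± 0.30 (SE, adjusted p = 0.0265).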

How the data were processed

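Smart-seq2 reads of 39 mouse libraries were trimmed, aligned and quantified by the authors with Trim Galore 0.6.10, STAR 2.7.3a and RSEM 1.2.28 on GRCm38, per the submitters' processing notes; the annotation and strand setting are not given in the sources used here. The authors deposited RSEM expected counts; 12.6% of the values above 0 were not whole (tolerance 0.005). They were rounded, and sisters were summed to 19 embryos (2738246 to 103179667 counts, libraries 2019180 to 44048051). No 2 libraries were identical, the highest correlation between libraries being 0.953. Without stated strand, overlapping and antisense genes cannot be told apart; reads shared with related genes made Nop56, Imp4, Nhp2 and Tsr1 uncertain.

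The test was edgeR 4.0.16 (quasi-likelihood, TMM, filterByExpr, R 4.3.3) over all embryos with a batch term, 14 residual degrees of freedom, and Benjamini-Hochberg adjustment over 14119 genes at 0.05. CPM are TMM-normalised; single-blastomere CPM are per total counts. Standard errors are the fold change over the root of F. The sister spread used log2 CPM with a prior count of 2. Alternatives were DESeq2 1.42.0, its size factors, limma voom 3.58.1 with quality weights, other filters, thinning, batch and replicate terms, and each embryo left out. The scripts were tested on simulated data. Fold sizes were recovered there without bias, but recovery was tabulated by fold size and not by level. Power for members of low level was therefore not measured and may be low, and a missing call for them does not show that they are unchanged.

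The members and lists were chosen with earlier results of these data known. Members named in full were the 3 of smallest p per role class, all called members, and, for separation and interaction, the 3 of smallest p; some others were named after their values were seen. Intervals cover counting error only. Embryos of the same replicate number in different groups did not correlate in their deviations from the group means (21 pairs, -0.06 to 0.02). This does not show that the numbers mark no pairing, since litter was not stated. Promoter windows came from RefSeq (GRCm38.p6), gene coordinates from GENCODE M21; 43 of 47 windows overlapped a transcript of their gene.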

Additional observations from a re-analysis of the deposited data

Results flagged for a closer look

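Within groups of 4 or 5 embryos, the gap of the highest or lowest embryo from the next was tested by Dixon's criterion. Of 200 combinations of member and group 11 passed, which is near the 1 in 20 that chance passes. The group of separated 4-cell embryos held both batches. For Rrp1 the criterion passes at any value, since the other embryos of the group stood at 0. In intact 4-cell embryos, number 3 was high for Utp15 (120.5 CPM, next 78.1) and low for Utp3 (45.8 CPM, next 122). Number 5 was high for Nob1 (242 CPM, next 90.7) and for Bop1 (56.4 CPM, next 26.8). In separated 2-cell embryos, number 1 was high for Nop2 (32.8 CPM, next 8.61), number 2 was high for Pes1 (62.0 CPM, next 25.2) and low for Noc3l (32.8 CPM, next 86.0), and number 4 was high for Ddx18 (289 CPM, next 162) and the only one with Rrp1 counts (0.847 CPM). In separated 4-cell embryos, number 2 was high for Ddx18 (229 CPM, next 153) and number 4 for Npm1 (6053 CPM, next 3841).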

How the results depend on the processing

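In intact embryos Ddx21, Gnl2, Gnl3, Ncl and Wdr75 kept their call under every alternative run, and in separated embryos Gnl3, Rrp1 and Wdr75 did. The median log2 fold change over members in intact embryos was 1.01 with DESeq2 size factors and with DESeq2, 1.25 with voom, 0.99 with only the groups compared, 0.98 with batch 2 left out, 1.03 with sisters thinned (an alternative chosen after seeing the data) and 0.86 to 1.25 with each embryo left out. In separated embryos it was 0.86 with DESeq2 size factors, 0.87 with DESeq2, 0.86 with no filter, 1.14 with voom, 1.28 without a batch term and 0.78 to 1.14 with each embryo left out. Members higher numbered 8 to 12 in intact and 3 to 11 in separated embryos with each embryo left out (3 without separated 4-cell embryo 4, 5 without 2, 6 without 3, 7 without 6 or 7 or without 2-cell embryo 2), and 5 in separated embryos with no filter. Separated against intact 2-cell embryos gave 1 lower member, Rrp1, with no filter, DESeq2, voom or thinned embryos (0 to 1 with each embryo left out), and the interaction gave 1 with DESeq2 (0 to 1). Between batches, 1, 4, 16 and 11 members were higher with DESeq2 size factors, DESeq2, voom and only the groups compared, and 7 and 5 were lower with the last 2 (0 to 2 with each embryo left out). The share of all genes called under each alternative is not given here. Whether the counts of members under the alternatives, here and below, lie above that share cannot be read from them. Npm1 did not pass with voom (adjusted p = 0.586 and 0.306).

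In intact and separated embryos, the fit with the replicate number as a block gave medians of 1.02 and 1.13. It called 10 and 5 members higher there. Same-numbered embryos did not correlate, but whether the numbers pair the embryos is not known. Nhp2 in intact embryos turned to -0.072 with DESeq2 size factors and with DESeq2, -0.094 with only the groups compared, -0.10 with batch 2 left out, -0.056 with sisters thinned and ranged from -0.14 to 0.16 with each embryo left out. In separated embryos Dkc1 turned to 0.038 with voom and 0.34 without a batch term, Nop56 to -0.023 without 2-cell embryo 1 and Rrp12 to -0.0058 without 2-cell embryo 2 (up to 0.58 with another embryo left out); Nob1 in intact embryos turned to -0.075 without 4-cell embryo 5. DESeq2 size factors shifted the median of all genes by -0.13 in intact and -0.06 in separated embryos, and 44 and 39 members were above 0 with them. Sister spread at a mean of at least 50 CPM was 0.71 at the 2-cell stage and 0.61 in batch 1, and 23.3% of members held CACGTG in the whole window. The cause of these changes was not tested. Depth limits members with few counts, such as Nle1 with at most 43 counts in any intact embryo.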
